A study of Gallus gallus with 9 samples.

Results

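RNA of the embryonic chick heart was compared with RNA of circulating non-red blood cells (nRBCs) across all chicken probe sets of 1 Affymetrix array design, and genes on both sides of the comparison were described. The arrays were taken by their labels, 1 for the heart and 4 for nRBCs, which makes 5 of the 9 arrays of the series, and 38439 probe sets were compared on each. The heart sample is titled embryonic day 6 (E6) and was not replicated, whereas the heading of the deposited table gives E4 for it. The nRBCs are the upper layer of a density gradient loaded with blood from embryonic ventricles, sampled at E4 (2 arrays) and E6 (2 arrays), and each nRBC array holds RNA of separately pooled embryos. The remaining 4 arrays hold the lower, red blood cell (RBC) layer of such gradients at the same stages, and they enter below only as a second blood reading. No sample carries a transgene or a treatment, and neither the number of hearts in the heart sample nor whether hearts and blood came from the same embryos is given in the sources used here.

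The working muscle of the heart is built from sarcomeres, in which myosin filaments pull on actin filaments under the control of calcium, and its cells are coupled electrically by connexins and mechanically by cadherins. Around this muscle lie endocardium, the matrix-rich cushions that give rise to valves, and the epicardium. Circulating blood of the chick embryo carries nucleated red cells, thrombocytes, which are the nucleated counterpart of mammalian platelets, early macrophages and granulocytes, and progenitors.

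Signals are given as log2 of the authors' MAS5 brightness after quantile normalization over the 9 arrays, and a call of Present means that the array software detected the probe set. The share of probe sets called Present was 40.5% on the heart array and 34.0% to 36.0% on the nRBC arrays. RNA integrity was read from GAPDH, whose 3′ signal divided by its 5′ signal climbs as RNA breaks down, and which was 2.08 on the heart array and 5.20 and 4.22 on the E4 and 12.7 and 5.99 on the E6 nRBC arrays. Deposited signals under 1 numbered 1167 on the heart array, 256 on E4 nRBC replicate 2 and 1182 to 1449 on the other nRBC arrays. The GAPDH ratio thus set the heart apart from every nRBC array, while its number of signals under 1 lay within the nRBC range. The part of integrity in the differences was not tested, and counts under other scalings are given with the dependence on processing below. Over all probe sets the heart array correlated with the nRBC arrays at 0.83 to 0.85, the nRBC arrays with each other at 0.87 to 0.90, and the heart array with the RBC arrays at 0.66 to 0.72.

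With 1 heart array, a probe set was counted as higher in the heart when it was Present there, lay above every nRBC array and exceeded the nRBC mean at least 4-fold, and as higher in nRBCs when it was Present on all 4 nRBC arrays, with the heart below every one of them and at least 4-fold below their mean. By this rule 1258 probe sets (3.27% of all) with 752 gene symbols were higher in the heart, and 473 (1.23%) with 315 symbols were higher in nRBCs. With 1 probe set per gene, the one with the highest mean signal over the 9 arrays, the rule took 483 of 13010 genes (3.71%) for the heart and 278 (2.14%) for nRBCs. Of the 1258 probe sets, 573 were Present on no nRBC array, 308 on 1 to 3 and 377 on all 4. Among all 15575 probe sets Present in the heart, 1869 were Present on no nRBC array and 9653 on all 4. Detection in nRBCs was less frequent in the set higher in the heart, but the rule itself asks for a low nRBC signal. The lower frequency is therefore no separate result. Of the 473 probe sets, 145 were called Absent in the heart and 316 Present. Mean differences of 64-fold or more, with undetected signals taken as read, were found for 23 probe sets higher in the heart and 20 higher in nRBCs. In whole tissue and mixed cell fractions, fewer cells of a type and less RNA per cell cannot be told apart.

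Detection alone, which does not depend on normalization, gave 1869 probe sets (4.86%) Present in the heart and on no nRBC array, and 295 (0.767%) Present on all 4 nRBC arrays and Absent in the heart. With 1 probe set per gene these were 557 genes (4.28%) and 135 genes (1.04%). The sides do not meet equal conditions, since the heart side needs 1 Present call and the nRBC side 4. The sizes of the counts are therefore not comparable between sides, also for the 1258 and 473 probe sets of the 4-fold rule. The heart lay above every nRBC array in 8702 probe sets (22.6%) and below every one in 9917 (25.8%), so lack of overlap by itself was frequent. Per gene these shares were 23.3% and 29.1%. Of the 9653 probe sets Present on all 5 arrays, 7101 lay within 2-fold of the nRBC mean. By limma, which here assumes that the single heart array varies like the nRBC arrays, 0 probe sets (0.0%) were higher and 0 (0.0%) lower in the heart at an adjusted p under 0.05. The lowest adjusted p was 0.109, and at an unadjusted p under 0.05 the fit took 1995 higher and 2117 lower. The 4-fold rule used the same arrays as this fit, so low p-values among the probe sets it counted are no independent support. An exact permutation test of 1 array against 4 can reach no one-sided p below 0.2, or 0.4 where the one-sided p is doubled. Limma with an intensity trend took 220 higher and 264 lower, and with probe sets Present on at least 2 of the 5 arrays it took 201 and 274. All differences below are therefore descriptions of 1 heart sample against the range of 4 nRBC samples.

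**Figure D1:**
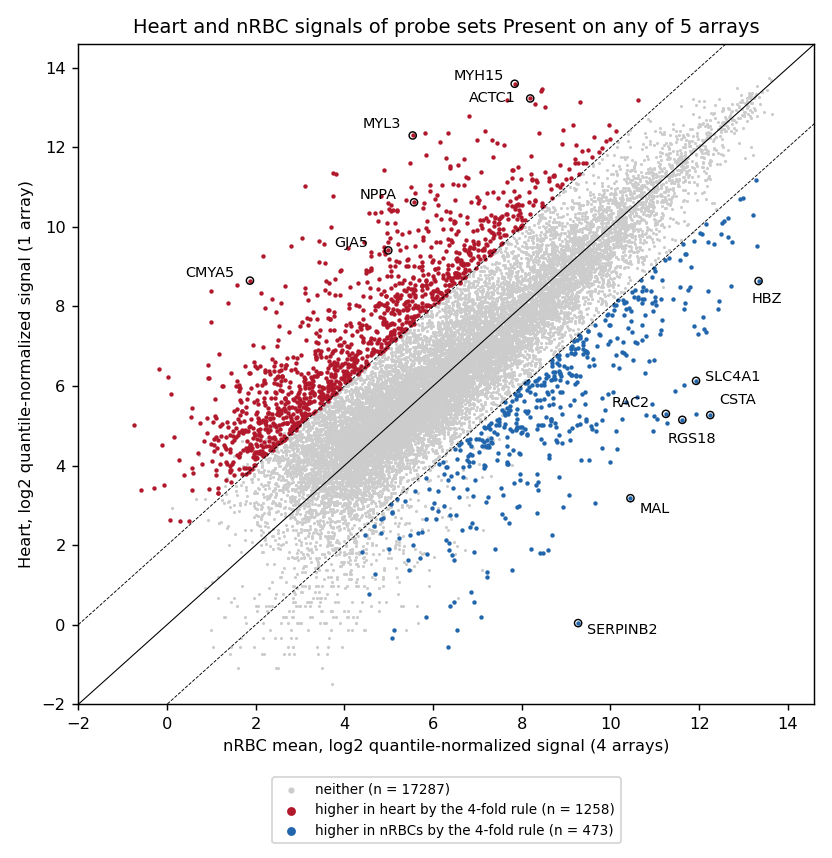
Log2 quantile-normalized signal of the 1 heart array (vertical axis) against the mean of the 4 nRBC arrays (horizontal axis) for the 19018 probe sets Present on at least 1 of the 5 arrays. Each point is a probe set, the solid line marks equal signal and the dashed lines a 4-fold difference; the 1258 probe sets higher in the heart are red, the 473 higher in nRBCs blue, and named genes are circled.

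The gene lists parted by tissue. Of 40 sarcomere genes measured, 27 were higher in the heart and 1 in nRBCs, and the median difference, heart minus nRBC mean, was 4.27 log2 units against -0.09 over all 13010 genes. At the other end, 24 of 40 erythroid genes and 16 of 36 thrombocyte genes were higher in nRBCs, against 1 and 0 higher in the heart, with medians of -2.61 and -2.09. Housekeeping genes had a median of 0.04, with 1 of 28 higher in the heart (EEF1A2) and 1 in nRBCs (B2M).

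**Figure D2:**
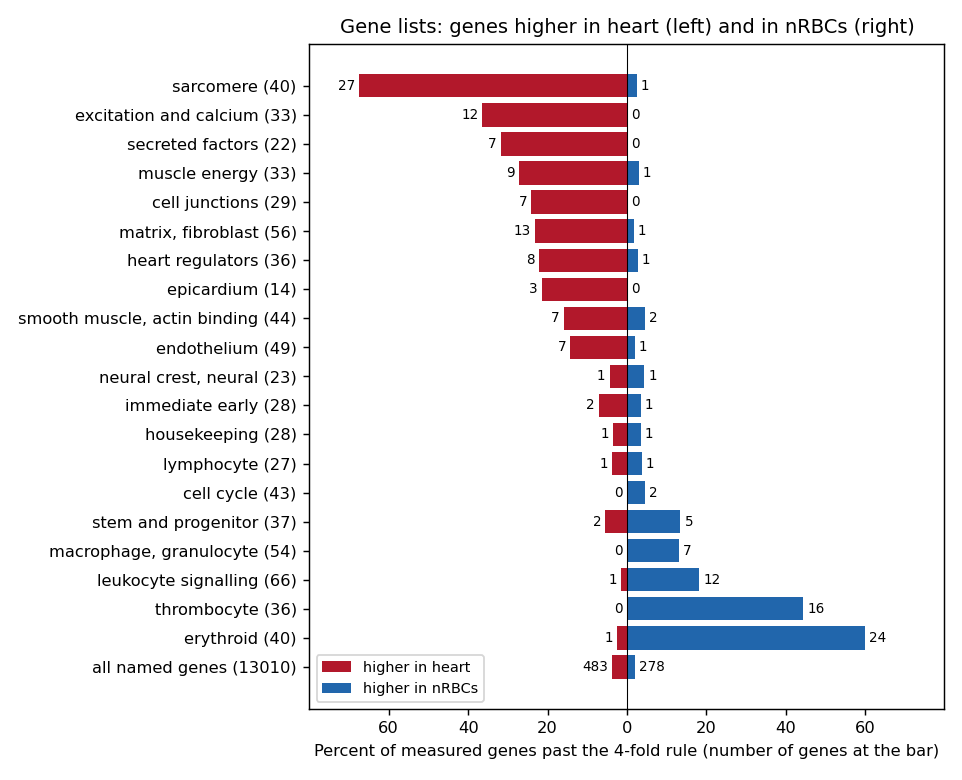
Percent of the measured genes of each list that were at least 4-fold higher in the heart (red, drawn to the left) or in nRBCs (blue, drawn to the right), with the number of genes at each bar and the number measured in brackets. Sarcomere genes reach 67.5% on the heart side and erythroid genes 60.0% on the nRBC side, and all named genes together give 3.71% and 2.14%.

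Sarcomere genes had the highest median difference of the 20 gene lists. MYH15, the ventricular myosin heavy chain of the chick, measured 13.60 in the heart, against 8.18 and 5.29 on the E4 and 9.52 and 8.35 on the E6 nRBC arrays (in this order, replicate 1 before 2, in all that follows), a 54.4-fold difference. MYL3, an essential myosin light chain, measured 12.30 in the heart, against 5.75, 3.54, 7.60 and 5.25 in nRBCs, or 108-fold. CSRP3, the muscle LIM protein of the Z disc, measured 12.36 in the heart, against 6.44, 3.53, 7.06 and 6.22, or 93.2-fold. In each of the 3 genes the heart stood clear of all nRBC arrays by more than 4 log2 units. MYH7, a slow myosin heavy chain, was 70.4-fold, ACTN2, the α-actinin that crosslinks actin at the Z disc, 63.1-fold, and MYH7B 92.9-fold higher in the heart. ACTC1, cardiac actin, measured 13.23 in the heart, against 8.79, 7.23, 8.80 and 7.94 in nRBCs (33.0-fold), and TNNT2, cardiac troponin T, 13.47, against 7.49, 8.11, 10.15 and 8.06 (32.4-fold). Both genes were Present on all 4 nRBC arrays, and the heart lay above every one of them. TNNC1, the calcium-binding troponin C of cardiac and slow muscle, was 14.4-fold and FHL2 27.5-fold higher.

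Where no nRBC array had a Present call, only a limit can be given. It sets the heart signal against, on each nRBC array, whichever is higher of the dimmest Present signal there and the signal read for the gene, and is written as "at least". A fold without these words includes, as read, the signals of nRBC arrays that were not Present. Among such genes, Present calls numbered 3 of 4 for CSRP3, COL4A1, CD34 and the 25.9-fold probe set of ADCYAP1. They numbered 2 for MYL3, MYH7, DSP and EDNRB, and 1 for MYH7B, CACNA2D1, SLN, GJA5, BMP10 and NKX2-5. The genes named here need not be all of them. SYNPO2L, an actin-associated protein of the Z disc, was at least 182-fold higher in the heart by 1 probe set (11.32 in the heart, against 3.37, 2.74, 6.06 and 3.08). Other SYNPO2L probe sets were detected in nRBCs, 1 Present on 3 nRBC arrays (28.1-fold) and 1 on a single nRBC array (4.25-fold). A further one was Present on none of the 5 arrays. CMYA5, a muscle protein that binds desmin, was at least 63.0-fold higher, and UNC45B, a chaperone for myosin, at least 87.5-fold, each by 1 of 2 probe sets, the other being Present on none of the 5 arrays. TTN, the giant sarcomere protein, read 11.03 in the heart, against 1.94, 1.47, 5.79 and 3.27 in nRBCs by 1 probe set, with a Present call on 1 nRBC array. TTN has 19 probe sets, and not all behaved alike; the one with the highest mean over the 9 arrays measured 4.49 in the heart, not Present, against 5.75, 5.33, 5.70 and 4.60. The list count therefore does not include TTN among the 27. MYBPC3, cardiac myosin-binding protein C, was higher in the heart by each of its 3 probe sets, at 31.3-fold, at least 132-fold and at least 16-fold. DES, the muscle intermediate filament desmin, was Present neither in the heart nor in nRBCs by either of its 2 probe sets.

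A few striated muscle genes ran the other way or divided by probe set. TNNI2, the inhibitory troponin of fast skeletal muscle, was Absent in the heart at 1.84 and Present on all 4 nRBC arrays at 6.95, 7.67, 6.17 and 6.92, at least 30.5-fold lower in the heart, and it was Present on no RBC array. MYBPC2, the fast skeletal form of myosin-binding protein C, was Absent in the heart at 3.60, against 7.79, 8.75, 8.98 and 7.96 in nRBCs, and was Present on all 4 RBC arrays. By contrast TNNC2, the troponin C of fast muscle, was at least 61.3-fold higher in the heart. MYL1, a myosin light chain of fast muscle, was higher in the heart by 2 probe sets (50.8-fold and at least 34.9-fold) while another read 4.66 in the heart, not Present, against 7.73, 7.93, 8.76 and 5.52 in nRBCs. Fast-muscle genes thus stood on both sides. TPM1, a tropomyosin whose transcripts are spliced differently in muscle and other cells, differed between its probe sets from 26.3-fold higher in the heart to a difference of -0.40, and the brightest read 11.63 in the heart, against 11.12, 11.37, 11.01 and 10.78. TPM2 measured 8.41 in the heart, against 11.56, 11.91, 12.01 and 11.47 in nRBCs, a difference of -3.33, by its brightest probe set, while another of its 6 probe sets differed by 1.36.

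Of 33 genes of excitation and calcium handling, 12 were higher in the heart and 0 in nRBCs, with a median of 1.59. ATP2A2, the calcium pump that refills the sarcoplasmic reticulum, measured 13.02 in the heart, against 8.49, 8.37, 9.42 and 7.80 in nRBCs (22.7-fold), and was also Present on all 4 RBC arrays. SLN, sarcolipin, a small inhibitor of such pumps, was 19.5-fold and CACNA2D1, an auxiliary calcium channel subunit, 27.7-fold higher. POPDC2, a cyclic AMP-binding membrane protein of muscle, was at least 36.0-fold higher, and CASQ2, the calcium store protein calsequestrin, at least 8.58-fold. RYR2, the calcium release channel, was at least 19.5-fold higher by 1 probe set and at least 2.26-fold by another. SLC8A1, the sodium-calcium exchanger, was at least 37.8-fold higher by 1 probe set, while the one with the highest mean differed by 0.02.

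Cell junctions of the heart muscle followed the same direction, with 7 of 29 genes higher in the heart, 0 in nRBCs and a median of 0.98. The other 22 were counted on neither side. In the heart 17 of the 29 read above every nRBC array and 6 below every one, against 23.3% and 29.1% of all genes. Those below included ZYX (-1.93) and TLN1 (-1.68). Without E4 nRBC replicate 1, or without E6 nRBC replicate 2, 2 genes were counted as higher in nRBCs. CDH2, N-cadherin, measured 12.19 in the heart, against 7.84, 8.05, 7.25 and 6.20 in nRBCs, 29.0-fold. CTNNA3, an α-catenin of the intercalated disc, was at least 41.3-fold higher, and the desmosome genes PKP2 and DSP were 12.8-fold and 8.35-fold higher. Among 9 connexins, GJA5 (21.3-fold), GJD2 and GJC3 were higher in the heart and 0 in nRBCs. GJA5, the connexin of atrial and arterial cells, measured 9.41 in the heart, against 4.76, 4.78, 5.33 and 5.11. The other 6 connexins were not counted on either side, among them GJA1, connexin 43, which measured 7.51 in the heart, within the nRBC values of 7.44, 9.25, 8.72 and 6.84. Its other probe set behaved alike, with 9.48 in the heart, against 10.25, 10.54, 10.31 and 8.50.

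Of 36 regulators of heart development, transcription factors and the BMPs that act on them, 8 were higher in the heart and 1 in nRBCs, with a median of 0.55, and 11 were Present on none of the 5 arrays, as were 4046 of all 13010 genes. GATA5 measured 11.18 in the heart, against 7.38, 8.12, 10.40 and 7.36 in nRBCs (7.27-fold), so that 1 nRBC array came within 1 log2 unit of the heart. NKX2-5, a homeodomain factor required for heart formation, measured 8.02 in the heart, against 5.01, 4.57, 6.46 and 3.01 (9.55-fold). GATA6 was at least 7.84-fold and HAND2 at least 5.30-fold higher. IRX4, a factor of the ventricle, measured 11.55 in the heart, against 6.13, 5.63, 8.38 and 6.09 by 1 probe set (31.7-fold), while the probe set of the list was Present on none of the 5 arrays. GATA4 was likewise Present on none of the 5 arrays and stands without a fold. NKX2-6 was the member higher in nRBCs, Absent in the heart at 3.36 and Present in nRBCs at 6.19, 5.19, 6.32 and 6.70, and it was Present on all 4 RBC arrays. BMP10, a growth factor of the trabecular layer counted among the 36, was 37.9-fold higher in the heart. Of 22 other genes of peptides and secreted factors, 7 were higher in the heart and 0 in nRBCs, with a median of 1.49. NPPA, the precursor of atrial natriuretic peptide, measured 10.62 in the heart, against 5.85, 5.06, 6.23 and 5.15 in nRBCs, or 33.0-fold.

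Among genes of muscle energy supply, 9 of 33 were higher in the heart and 1 in nRBCs (median 0.87). FABP3, the heart fatty acid-binding protein, measured 11.70 in the heart, against 6.06, 6.87, 6.98 and 6.91 in nRBCs, 31.9-fold. MB, the oxygen store myoglobin, was at least 27.1-fold and CKMT2, the mitochondrial creatine kinase of striated muscle, at least 11.1-fold higher. The subunits of lactate dehydrogenase fell on opposite sides, LDHB with a difference of 1.15 (13.07 in the heart, against 12.29, 12.21, 11.08 and 12.11) and LDHA with -2.07 (10.08 in the heart, against 11.89, 12.53, 11.96 and 12.20). EEF1A2, the muscle and neuron form of elongation factor 1α, was 38.1-fold higher in the heart, at 12.42, against 6.98, 6.81, 8.47 and 6.43, whereas its paralogue EEF1A1 differed by 0.16.

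Of 56 matrix and fibroblast genes, 13 were higher in the heart and 1 in nRBCs, with a median of 1.61. COL4A1, a basement membrane collagen, measured 9.49 in the heart, against 5.81, 5.46, 5.52 and 4.72 in nRBCs (17.3-fold). COL1A2 measured 12.09, against 9.21, 9.50, 8.70 and 8.26 (9.03-fold), and VCAN, the proteoglycan versican of the cardiac cushions, 10.73, against 7.25, 8.42, 7.90 and 6.26 (9.66-fold). Each was nevertheless Present on at least 3 nRBC arrays and on no RBC array. TIMP3, an inhibitor of matrix proteases, was the 1 member higher in nRBCs, at 7.16 in the heart, against 10.10, 11.27, 11.14 and 10.33 (a difference of -3.55). TCF21, a factor of epicardium-derived cells, was 7.35-fold and ALDH1A2, which makes retinoic acid, 4.77-fold higher in the heart. Of 14 epicardial genes, 3 were counted there and 0 in nRBCs, with a median of 0.13. The other 11 were counted on neither side. In the heart 2 of the 14 read below every nRBC array and 3 above every one, against 29.1% and 23.3% of all genes. Of 49 genes listed for endothelium, not all of them confined to it, 7 were higher in the heart and 1 in nRBCs (median 0.76). The 7 included PROX1 (15.0-fold), the endothelin receptors EDNRB (11.8-fold) and EDNRA (9.13-fold), and VE-cadherin, CDH5 (4.14-fold). The list member higher in nRBCs was TAL1, which also acts in blood cells.

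**Figure D3:**
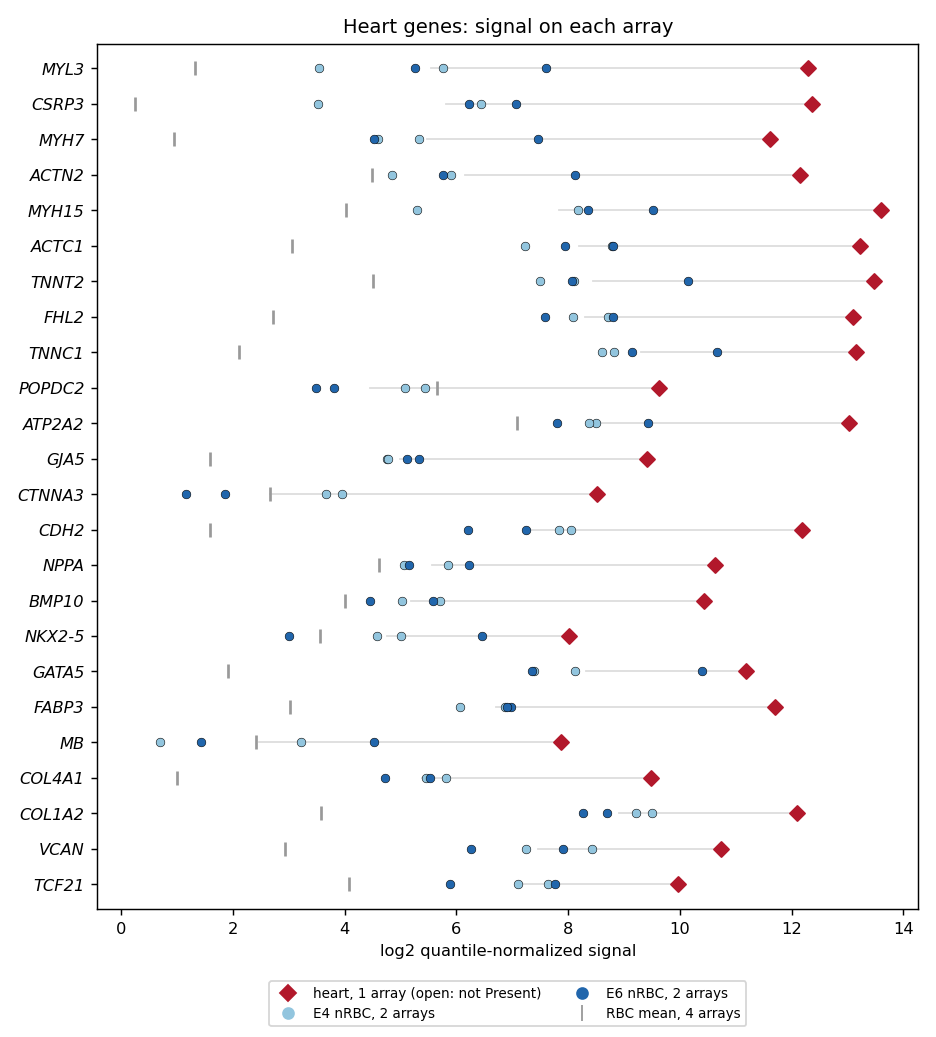
Log2 quantile-normalized signal of 24 genes of heart muscle, its regulators, metabolism and matrix on the heart array (red diamonds), the E4 and E6 nRBC arrays (light and dark blue circles, 2 each) and as the mean of the 4 RBC arrays (grey ticks). Every heart diamond lies to the right of all nRBC circles, by the least for GATA5 (11.18 in the heart, against 10.40 on E6 nRBC replicate 1), and most RBC ticks lie to the left of the nRBC circles.

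The nRBC arrays were not equal in their content of heart genes. For the 27 sarcomere genes higher in the heart, the highest of the 4 nRBC signals was on E6 nRBC replicate 1 in 22, and the median difference to the heart was 4.01 on that array, against 5.29, 6.0 and 5.29 on E4 replicates 1 and 2 and E6 replicate 2. Summed over these 27 genes, the signal of this array was 7.73% of that of the heart, against 2.81%, 2.14% and 2.89% on the other 3. For the 8 heart regulators the corresponding sum reached 35.6% on E6 nRBC replicate 1 and 4.70% to 11.4% on the others. The 13 matrix genes behaved differently, since their sums were 16.4%, 17.6% and 20.2% of the heart on the first 3 arrays and 7.48% on E6 nRBC replicate 2, which was the lowest in 11 of the 13. E6 nRBC replicate 1 also had the highest GAPDH ratio and the highest signal in 19 of the 24 erythroid genes higher in nRBCs. The genes in these counts were kept by the 4-fold rule on the same arrays. How often each array was the highest or lowest over all probe sets is not given here, so a general property of an array cannot be told apart. The part of RNA integrity in these values was not tested. Without this array 25 sarcomere genes were counted as higher in the heart, and 20 matrix genes in place of 13. Over all 40 sarcomere genes the summed linear signal was 105200 in the heart, 5186 to 10970 on the nRBC arrays and 865.6 to 1317 on the RBC arrays, so that the nRBC fraction lay between the heart and the RBC fraction. Members shared unequally in this. The nRBC mean corresponded to 68.0% of the heart signal for TPM1, 28.3% for MYL4 and 24.7% for PDLIM5, but 1.59% for ACTN2 and 3.09% for TNNT2. The median log2 signal of the 40 genes was 9.47 in the heart, 5.14 to 6.65 on the nRBC arrays and 2.67 to 3.64 on the RBC arrays.

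**Figure D4:**
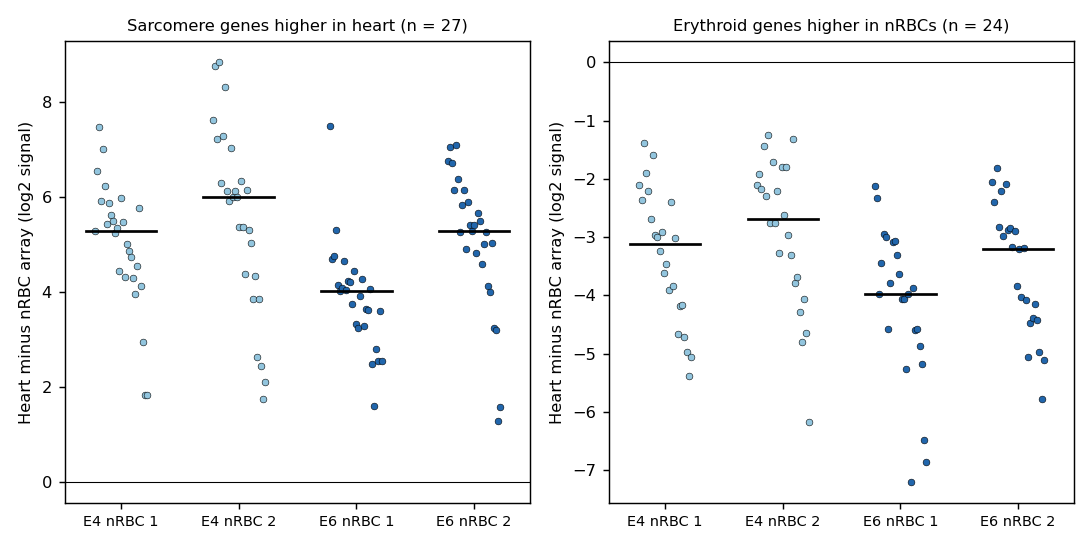
Difference in log2 signal between the heart array and each nRBC array for the 27 sarcomere genes higher in the heart (left) and the 24 erythroid genes higher in nRBCs (right). Each point is a gene, and the bars are medians, which lie nearest to 0 on E6 nRBC replicate 1 for sarcomere genes (4.01) and farthest from 0 on the same array for erythroid genes (-3.97).

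On the side of the circulating cells, 16 of 36 thrombocyte genes were counted as higher in nRBCs. The other 20 were counted on neither side, and 5 of the 36 were Present on none of the 5 arrays. In the heart 29 read below every nRBC array and 2 above every one, against 29.1% and 23.3% of all genes. Differences over the list ran from -6.47 to 1.61. RGS18, a regulator of G-protein signalling in platelets, measured 5.15 in the heart, against 11.56, 11.70, 11.85 and 11.37 in nRBCs, an 88.5-fold difference, and was Present on no RBC array. ITGB3, the β chain of the fibrinogen receptor, measured 7.74 in the heart, against 11.62, 12.37, 12.34 and 12.02 (20.3-fold), and PLCG2, a phospholipase downstream of platelet collagen receptors, 6.33, against 10.65, 10.78, 10.81 and 10.89 (22-fold). For each of these genes the nRBC arrays lay within 1 log2 unit of each other and the heart lay far below all of them. GP9, part of the receptor for von Willebrand factor, was Absent in the heart at 3.80 and at least 23.3-fold lower there than in nRBCs. F13A1, a clotting factor stored in platelets, was 41.9-fold and TUBB1, the β-tubulin of the platelet rim, 49.6-fold lower in the heart, and TUBB1 was also Present on all 4 RBC arrays. ITGA2, a collagen receptor chain, PTGS1, the cyclooxygenase of thromboxane synthesis, and the kinase SYK were 27.8-fold, 14.5-fold and 6.95-fold lower. With any 1 nRBC array left out, 16 to 17 genes of the thrombocyte list were counted as higher in nRBCs. The lowest unadjusted p of limma was that of SERPINB2, an inhibitor of plasminogen activators, Absent at 0.04 in the heart, against 8.92, 9.64, 9.94 and 8.59, at least 155-fold lower in the heart.

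Genes of leukocyte signalling followed, with 12 of 66 higher in nRBCs, 1 in the heart and a median of -1.25. RAC2, the blood-cell member of the RAC GTPases, measured 5.30 in the heart, against 11.22, 11.56, 11.18 and 11.03 in nRBCs, 61.6-fold lower in the heart. BTK, a kinase of B cells and myeloid cells, was 53.4-fold lower in the heart and also Present on all 4 RBC arrays. PTPRC, which encodes the pan-leukocyte phosphatase CD45, measured 4.88 in the heart, against 9.69, 9.29, 9.70 and 10.01 (27.7-fold), and it was Present in the heart. Another PTPRC probe set, Present on 2 nRBC arrays and Absent in the heart, differed by -0.32. The adaptor LCP2 was Absent in the heart at 2.78 and at least 27.5-fold lower. RGS2 was the 1 member higher in the heart, at least 5.28-fold.

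Of 54 macrophage and granulocyte genes, 7 were higher in nRBCs, 0 in the heart, and the median was -0.90. The other 47 were counted on neither side, and 11 of the 54 were Present on none of the 5 arrays. In the heart 32 read below every nRBC array and 5 above every one, against 29.1% and 23.3% of all genes. CD200R1A, an inhibitory receptor of myeloid cells, measured 5.08 in the heart, against 10.86, 11.37, 11.75 and 11.09 in nRBCs, 72.7-fold lower in the heart. The antimicrobial β-defensins AvBD1 and AvBD7 were lower in the heart by at least 35.4-fold for AvBD1 and 23.9-fold for AvBD7, and LECT2, a chemotactic factor, was 19.1-fold lower. LY96, a partner of the endotoxin receptor, was Absent in the heart and at least 12.2-fold lower. B2M, the light chain of MHC class I, is also on the housekeeping list. It measured 7.43 in the heart, against 12.16, 11.43, 12.69 and 12.11 in nRBCs, with a difference of -4.67. On the RBC arrays B2M was Present on all 4. Another B2M probe set, Present in the heart and on all 4 nRBC arrays, differed by -0.94. CSTA, a cystatin inhibitor of cysteine proteases, is not on this list. It had the largest difference among genes Present on all 5 arrays, 126-fold lower in the heart. CSTA measured 5.27 in the heart, against 12.08, 12.67, 12.45 and 11.78 in nRBCs. In the lymphocyte list, 18 of 27 genes were Present on none of the 5 arrays, as were 4046 of all 13010 genes, and 1 gene each was higher in the heart (EBF1) and in nRBCs (GATA3).

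Genes of stem and progenitor cells divided. Of 37, 5 were higher in nRBCs and 2 in the heart, with a median of -0.68. KIT, the stem cell factor receptor, was Absent in the heart at 5.47, against 10.38, 8.49, 6.24 and 10.36 in nRBCs, at least 10.6-fold lower in the heart, and it varied by over 4 log2 units among the nRBC arrays. LMO2 (11.9-fold), TAL1 (6.80-fold) and GFI1B (at least 46.8-fold), transcriptional regulators of early blood and red cells, were lower in the heart and Present on all 4 RBC arrays. HOXA9, a homeobox gene of progenitors, measured 2.66 in the heart, against 6.42, 6.17, 5.48 and 6.21. CD34, a glycoprotein of both progenitors and vessel walls, went the other way, with 8.39 in the heart, against 6.14, 5.43, 6.86 and 5.52 in nRBCs, 5.26-fold higher in the heart. GATA2 was Present on none of the 5 arrays.

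Among the lists counted on the nRBC side, red cell genes had the largest share, 60.0%. SLC4A1, the anion exchanger of the red cell membrane, measured 6.13 in the heart, against 11.18, 12.31, 12.99 and 11.24 in nRBCs (55.6-fold lower in the heart), and EPB42, protein 4.2 of the membrane skeleton, 5.88, against 11.26, 10.52, 12.37 and 11.65 (47.6-fold). TSPO2, an erythroid cholesterol-binding protein, was 27.8-fold lower, and the haem enzymes FECH and UROD 18.4-fold and 13.9-fold lower. The embryonic globin HBZ measured 8.64 in the heart, against 13.36, 13.44, 13.50 and 13.06, HBBR 10.30, against 13.29, 13.06, 13.38 and 13.15, and HBE 11.18, against 13.29, 13.28, 13.31 and 13.23. The RBC means of the 3 genes were 13.40, 13.25 and 13.15, close to the nRBC values and near the top of the scale, and whether signals there still follow the amount of RNA was not tested, so no fold is given. Globin RNA was detected in the heart at signals above 8, and HBA1, an α-globin, differed by -0.07 by 1 probe set and by -1.14 by another. Over the 40 erythroid genes the summed signal was 35270 in the heart, 108700 to 170800 on the nRBC arrays and 151500 to 190600 on the RBC arrays, so red cell RNA was abundant in the nRBC fraction and present in the heart. Such sums weigh the brightest genes most, and the limit given above for signals near the top of the scale applies to them. No fold is therefore drawn from the sums. The part of blood cells in the heart sample in these values was not tested. TMOD1, tropomodulin, which caps actin filaments in both red cells and heart muscle, was the 1 list member higher in the heart, by 7.11-fold.

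**Figure D5:**
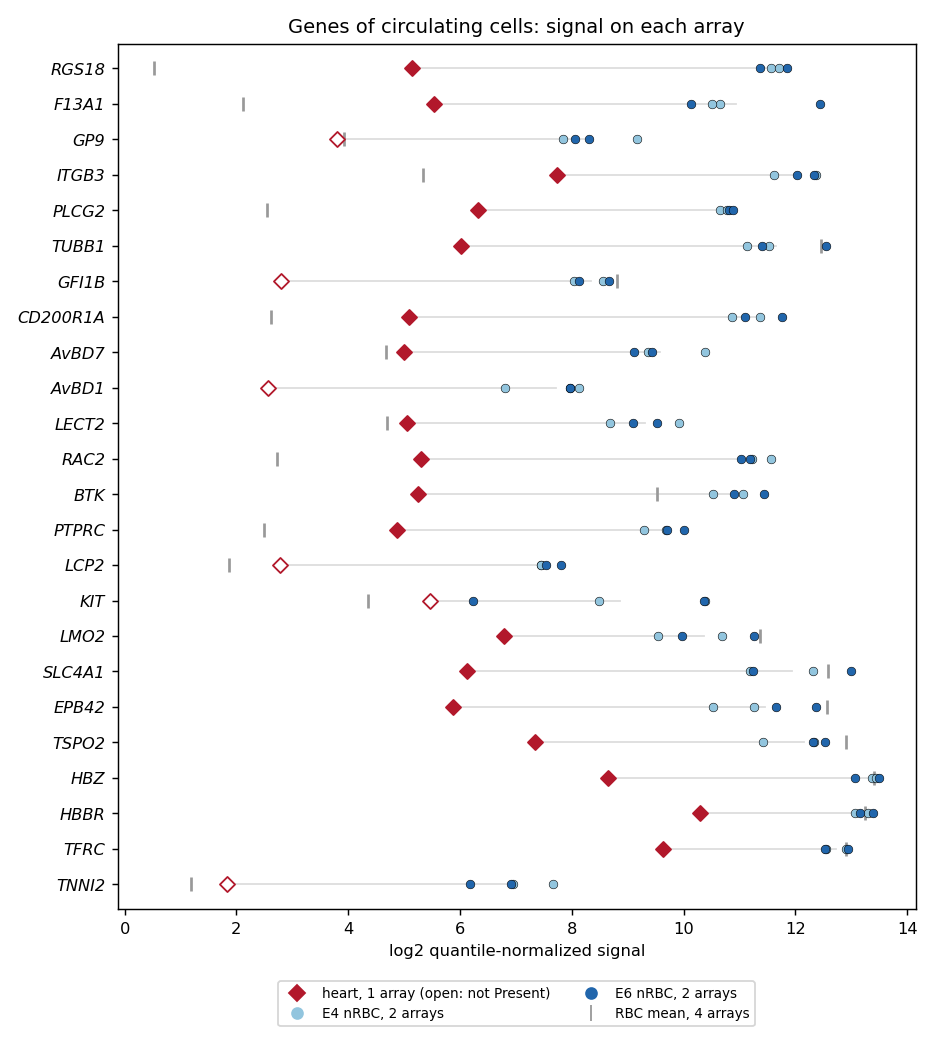
Log2 quantile-normalized signal of 24 genes of circulating cells on the heart array (diamonds, open where the heart was not called Present), the E4 and E6 nRBC arrays (light and dark blue circles, 2 each) and as the mean of the 4 RBC arrays (grey ticks). Every heart diamond lies to the left of all nRBC circles, and the RBC ticks lie near or right of the nRBC circles for red cell genes but far to the left for most thrombocyte and leukocyte genes.

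The genes counted were also read on the RBC arrays. Of the 473 probe sets, 313 (66.2%) were Present on all 4 RBC arrays and 111 (23.5%) on none, and in 245 the RBC mean was at or above the nRBC mean. The rule asks for Present calls on all 4 nRBC arrays, which 9998 probe sets had, and 6470 were Present on all 9 arrays. The 66.2% is thus near the share among probe sets so detected. Of the 1258 probe sets higher in the heart, 1032 (82.0%) were Present on no RBC array and 54 (4.29%) on all 4. Over all 38439 probe sets, 24879 were Present on no RBC array and 6937 on all 4. A smaller set of 67 probe sets with 50 symbols was higher in nRBCs and Present neither in the heart nor on any RBC array. Beyond SERPINB2, a second probe set of F13A1, GP9, AvBD1, LCP2 and TNNI2, this set held PLEK, pleckstrin, a platelet substrate of protein kinase C (at least 20.1-fold lower in the heart), BIN2, a membrane-shaping protein of blood cells (at least 58.6-fold), and the adhesion molecule CHL1 (at least 37.5-fold). It also held a probe set annotated as MAL, which the study lists under MSRA, with 3.18 in the heart, against 10.64, 10.77, 10.10 and 10.30, at least 155-fold lower in the heart, the same limit as for SERPINB2. Another probe set of each of BIN2, MAL, PLEK and SERPINB2 was Present on 1 RBC array. By those probe sets the genes were lower in the heart by at least 85.9-fold, 12.9-fold, 5.66-fold and 4.88-fold, in this order. A further 60 probe sets were Present on all blood arrays and Absent in the heart, among them TAL1 by a probe set other than that of the list (at least 33.7-fold lower), the cation channel MCOLN2 (at least 96.3-fold) and the plastin PLS1 (at least 62.9-fold). On the heart side, 558 probe sets were higher than in nRBCs and Present on none of the 8 blood arrays.

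The study had kept 59 probe sets as raised in nRBCs over RBCs after screening them against this same heart array, so their direction here is not independent evidence. Of these, 28 were higher in nRBCs than in the heart by the 4-fold rule and 2 were higher in the heart, with a median of -2.06. The 2 were TSPAN6, a tetraspanin (12.17 in the heart, against 9.99, 11, 9.77 and 8.83 in nRBCs), and PTN, the growth factor pleiotrophin (11.76, against 9.80, 9.41, 11.04 and 8.11). Heart calls were Present for 47 of the 59 and Absent for 11. In the heart 46 of them read below every nRBC array, as did 29.1% of all genes.

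Of 12 gene families, 3 had members counted on both sides, the calcium pumps, the GATA factors and the integrins. Among calcium pumps, ATP2A2 differed by 4.50 and its blood paralogue ATP2A3 by -2.99 (7.78 in the heart, against 9.79, 10.99, 11 and 11.29). Among RAC GTPases RAC2 was counted as higher in nRBCs (-5.94), and RAC1 and RAC3 differed by 0.96 and 1.20. Among GATA factors, GATA5 and GATA6 were higher in the heart and GATA3 in nRBCs, at 4.27 in the heart, against 6.44, 7.11, 7.80 and 6.14. Of 16 integrin chains, ITGA4, ITGA7 and ITGA9 were higher in the heart and ITGB3 and ITGA2 in nRBCs, while ITGB1, the β chain shared by many integrins, differed by 0.29 (11.72 in the heart, against 11.40, 11.46, 11.55 and 11.34). Among the plastins, which bundle actin, PLS1 was counted as higher in nRBCs (-5.97), and LCP1 and PLS3 differed by -1.74 and -0.43. PLS1 is known from the gut lining of mammals and LCP1 from leukocytes.

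Neighbouring enzymes of catecholamine synthesis also lay on opposite sides. TH, tyrosine hydroxylase, was Present in the heart at 7.96 and on no blood array (1.58, 1.07, 4.74 and 1.49 in nRBCs), at least 33.1-fold higher in the heart. DDC, the decarboxylase that follows it and that also makes serotonin, was Absent in the heart at 0.56 and Present in nRBCs at 6.44, 7.90, 6.26 and 7.11, at least 30.5-fold lower in the heart. ADCYAP1, a neuropeptide precursor, was at least 72.1-fold higher in the heart by 1 probe set and 25.9-fold by the other.

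Genes of cell division differed little. Of 43 cell cycle genes, 0 were higher in the heart and 2 in nRBCs, with a median of -0.57. CCND3, cyclin D3, measured 7.93 in the heart, against 12, 12.83, 12.51 and 12.35 in nRBCs (22.5-fold lower in the heart), and was as bright on the RBC arrays, with a mean of 12.48. MKI67, a marker of cycling cells, measured 8.96 in the heart, against 11.06, 11.51, 10.41 and 10.92, a difference of -2.02.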

How the data were processed

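Whole hearts and density fractions of embryonic blood were profiled on 9 Affymetrix chicken arrays after amplification of 100 ng RNA in 2 rounds. The authors deposited, for each array, the MAS5 signal intensity of 38535 probe sets on a linear scale and a detection call, with no common scale between arrays; the sources used here give no software version. A second deposited table holds log2 values that equal the same signals less each array's mean log2 signal, and it served as an alternative. Left out were 96 control probe sets. Signals listed as 0 (7 on the 5 arrays) were set to 0.1, log2 was taken and the 9 arrays were quantile normalized. Of 38439 probe sets, 27168 carry 1 gene symbol from the platform annotation and 8 more were named from the study's gene list, 177 carry several and 11086 none, and no gene was named from those.

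Calls followed the 4-fold rule stated with the first counts, with Marginal read as not Present. The stages of nRBCs were pooled. limma 3.58.1 in R 4.3.3 fitted heart against nRBCs over all probe sets, with Benjamini-Hochberg adjustment at 0.05. It was also run on simulated data in which spreads were shuffled among probe sets. That run therefore does not show how the fit behaves where spread depends on signal. Python 3.11.15, numpy 2.4.6 and pandas 2.3.3 did the rest. The number of arrays limits the precision, and p-values measure the spread between nRBC pools.

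In each of 20 gene lists, up to 6 genes with the largest difference in each direction were chosen as named genes. The 25 largest of all in each direction, all members of 12 gene families and the genes the study discusses were added. Not every gene so chosen is printed in the text, so the printed genes are a selection from them. Others, such as TNNT2, ACTC1, FHL2, TNNC1, CASQ2, RYR2, IRX4, DES, LDHB, GP9, MYBPC2, FECH, UROD and the globins HBBR, HBE and HBA1, were named after their values were seen. The comparison and the lists were chosen with earlier results of these data known. Alternatives covered scaling, low signals, fold, stage, detection and each nRBC array left out.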

Additional observations from a re-analysis of the deposited data

Results flagged for a closer look

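Of 159 named probe sets counted as higher in the heart or in nRBCs, 8 (5.03%) had 1 nRBC array standing apart from the other 3 by Dixon's criterion, and chance alone marks about 1 in 20. On E6 nRBC replicate 2, 3 heart genes were low. ALDH1A2 measured 10.25 in the heart and 6.52 on that array, with 8.43 to 8.51 on the other nRBC arrays. EDNRA measured 9.55 in the heart and 4.2 on that array, with 6.86 to 7.38 on the others, and IGFBP7, a secreted binding protein of growth factors, 11.78 in the heart and 7.46, with 8.39 to 8.50 on the others. On E6 nRBC replicate 1, 2 heart genes were high, TH at 4.74 (7.96 in the heart and 1.07 to 1.58 on the others) and SVIL, supervillin, an actin-binding protein, at 10.67 (12.21 in the heart and 9.72 to 9.83 on the others). On E4 nRBC replicate 1, the smooth muscle actin ACTG2 read 3.24 (6.70 in the heart and 4.72 to 4.86 on the others) and FABP3 6.06 (11.70 in the heart and 6.87 to 6.98 on the others). On E4 nRBC replicate 2, AvBD1 read 6.80 (2.56 in the heart and 7.96 to 8.13 on the others).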

How the results depend on the processing

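Against 1258 probe sets higher in the heart and 473 higher in nRBCs, the counts were 604 and 350 with 16 added to each signal, 3186 and 1537 at 2-fold, and 482 and 210 at 8-fold, while 685 of the heart set remained among probe sets Present on at least 2 of the 5 arrays. With each nRBC array left out in turn the counts were 1197 to 1401 and 468 to 538. Probe sets Present in the heart and on no nRBC array numbered 2062 to 2233 with 1 nRBC array left out, 2816 against the E4 arrays and 3773 against E4 nRBC replicate 2, the array with few signals under 1; those Present on all nRBC arrays and Absent in the heart numbered 338 to 408, 673 against the E6 and 513 against the E4 arrays, and 1205 against that single array, each with fewer arrays to satisfy. limma, with 0 and 0, took 202 higher and 115 lower with 16 added, 201 and 274 among probe sets Present on at least 2 of the 5 arrays, 220 and 264 with an intensity trend, 0 and 1 without scaling, and 0 with any nRBC array left out; the cause was not tested. Scaling by the median of probe sets detected on each of the 9 arrays moved the median difference of all probe sets to 0.13, against -0.04. With this scaling the 4-fold rule counted 1639 probe sets for the heart and 389 for nRBCs, and 388 of the 473 (82.0%) were kept. Without scaling the counts were 1486 and 410, and with the deposited log2 values 1413 and 442. Of 3443 values for named probe sets 171 moved and 0 were scored as reversed, and of 284 medians of gene lists 47 moved and 0 were scored as reversed. Read against each nRBC array alone, some list medians nevertheless took both signs, such as those of epicardial (-0.41 to 0.68) and cell cycle genes (-1.02 to 0.22). In counts of list members, added after seeing the data, matrix genes higher in the heart numbered 20 without E6 nRBC replicate 1 and 22 against the E6 arrays alone (13 with all), and macrophage and granulocyte genes higher in nRBCs 12 against the E6 arrays (7 with all). No paired analysis was possible because the heart has 1 array. A single heart array gives no spread of its own, its stage is labelled in 2 ways, and signals under the lowest Present signal give limits only.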

Other observations

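Genes of smooth muscle and actin binding stood on both sides, with 7 of 44 higher in the heart, 2 in nRBCs and a median of 0.26. ACTA1, the actin of skeletal muscle that the embryonic heart also uses, measured 13.18 in the heart, against 7.75, 6.67, 9.18 and 7.10 in nRBCs, a difference of 5.50. VCAM1, an adhesion molecule that binds the ITGA4 integrin, measured 10.10 in the heart, against 5.12, 4.35, 6.29 and 4.81 in nRBCs, 31.0-fold higher in the heart, and ITGA4 itself 10.62, against 9.00, 7.63, 7.64 and 8.41. Ligand and receptor chain were thus both higher in the heart.

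IFI6, an interferon-induced gene, measured 5.29 in the heart, against 11.10, 12.84, 12.37 and 11.39 in nRBCs, 99.6-fold lower in the heart and second to CSTA among genes of the nRBC side Present on all 5 arrays. TFRC, the transferrin receptor that brings iron into red cells, measured 9.63 in the heart, against 12.55, 12.91, 12.94 and 12.53, a difference of -3.10. Among immediate early genes, 2 of 28 were higher in the heart and 1 in nRBCs, with a median of -0.05.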
